A study of Homo sapiens with 4 samples.

Results

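The Polycomb repressive complex genes examined here were EZH1, EZH2, EED, SUZ12, RBBP4, RBBP7, JARID2 and MTF2 of Polycomb repressive complex PRC2, and RNF2 and PCGF6 of complex PRC1. They were taken by name, by matching the Ensembl identifiers of the count files to GENCODE symbols, and all 10 were found among 60564 listed genes. Gene expression was measured by RNA-seq in Elf1 cells, a naïve human embryonic stem cell (ESC) line, under a pair of culture conditions with 2 biological replicates each, so 4 libraries were compared. The 2-D grown cells were adherent on coated plates. The methods of the authors do not state whether the sequenced 2-D cells were on feeder cells or on Matrigel. The 3-D grown cells had been dissociated, encapsulated in self-assembling PEG-8-SH/PEG-8-Acr scaffolds and kept there for 21 days without passaging. Both conditions used the same ESC expansion medium, with FGF2, the inhibitors CHIR99021 and PD03296501, and human LIF, and no gene was altered in either. All libraries come from 1 cell line. The line had been maintained on mouse embryonic feeder cells, and cells were moved to Matrigel before encapsulation. The scaffold, the loss of the coated plate (feeder cells or Matrigel), the dissociation and the time without passaging differed together between the conditions and cannot be told apart.

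Polycomb complexes are chromatin-modifying machines that keep genes silent. PRC2 methylates a lysine of histone H3 (H3K27) through EZH2 or its paralog EZH1, and needs EED and SUZ12 to be active, while RBBP4 and RBBP7 bind histones in PRC2 and in several other chromatin complexes. PRC1 places ubiquitin on a lysine of histone H2A (H2AK119) through RNF2 or its paralog RING1, each paired with a PCGF protein that defines the kind of PRC1. In ESCs these marks cover the promoters of developmental regulators such as the HOX genes, and JARID2 and MTF2 help to bring PRC2 to such sites. Only RNA was measured here, so the values speak of transcript levels and not of proteins, complexes or histone marks.

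EED, which binds methylated H3K27 and stimulates PRC2, and PCGF6, which defines a germline-gene-repressing form of PRC1, were the members that passed the test. The 250 bases before their RefSeq starts (GRCh38.p14, 5′ to 3′ on the strand of the gene) are shown because these genes moved, and neither window held an E2F word. The EED stretch is chr11:86244503-86244752 on the plus strand, and the PCGF6 stretch is chr10:103351141-103351390 on the minus strand. The RefSeq start of EED lies inside the longer span that GENCODE gives for the gene.
EED: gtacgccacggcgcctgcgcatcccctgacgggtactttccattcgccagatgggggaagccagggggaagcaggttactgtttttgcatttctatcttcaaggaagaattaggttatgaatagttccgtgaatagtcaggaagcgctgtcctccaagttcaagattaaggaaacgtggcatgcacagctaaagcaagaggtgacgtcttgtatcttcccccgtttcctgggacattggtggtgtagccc
PCGF6: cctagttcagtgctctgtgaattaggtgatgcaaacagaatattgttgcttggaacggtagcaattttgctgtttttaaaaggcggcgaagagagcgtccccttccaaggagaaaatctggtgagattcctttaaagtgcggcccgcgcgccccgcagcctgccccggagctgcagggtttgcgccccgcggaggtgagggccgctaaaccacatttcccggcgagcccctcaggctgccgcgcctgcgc

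E2F factors control many genes of the cell cycle, and PRC2 genes are known E2F targets, so the promoter windows of all members were searched on both strands for the E2F words TTTCCCGC, TTTGGCGC, TTTCGCGC and TTTGCCGC. RefSeq gave 14 windows of 300 bases for the 10 members, from 250 bases before the start to 50 bases after it. A word was found in 4 of the 14 windows (28.6%), in 3.31% of all 35116 promoter windows, and in 5.66% of the 16675 windows with at least as many CpG dinucleotides as the lowest member window. Those 16675 windows had a median of 29 CpG, against 40 in the member windows, so they are not matched for CpG. The windows of RBBP4 also overlap each other. Each member window held at most 1 match, and in the last 200 bases of the windows 3 of the 14 held one. The stretches of 30 bases around the matches are shown with the word in capitals, as the 4 members that carry a match are EZH1, EZH2, SUZ12 and MTF2, and the match in EZH1 and MTF2 reads on the opposite strand. They lie at chr17:42745137-42745166 (minus), chr7:148884272-148884301 (minus), chr17:31936807-31936836 (plus) and chr1:93079277-93079306 (plus), in this order. A match is a description of letters and does not show that a factor binds there.
EZH1: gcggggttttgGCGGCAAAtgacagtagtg
EZH2: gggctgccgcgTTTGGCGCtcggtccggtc
SUZ12: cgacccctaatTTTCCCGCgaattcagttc
MTF2: accggcagtccGCGGGAAAccaaaatggcg

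Total counts were 33833778 and 30114220 for the 2-D replicates, against 21154409 and 18276147 for the 3-D replicates, and the members had between 407 and 20279 counts in a library. Levels are given as normalized CPM, which are counts scaled to a common library total after TMM normalization, and each log2 fold change sets 3-D against 2-D culture. It comes from the quasi-likelihood test of edgeR, with p-values adjusted by Benjamini-Hochberg over 22555 tested genes. A gene is called when its adjusted p is below 0.05. In this test 7.9% of the tested genes were called, 4.54% upward and 3.36% downward in 3-D culture. DESeq2 called 7.77% of the 10229 genes to which it gave an adjusted p. With library size as the only scaling those shares were 2.28% and 8.33%, so the share of higher genes among the called ones depended on the scaling (57.5% with TMM, 21.5% without it). Mitochondrially encoded genes took 5.10% to 5.30% of the counts in the 2-D libraries and 8.33% to 8.502% in the 3-D libraries. In bulk RNA, fewer cells of a type and less RNA per cell cannot be told apart.

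Most Polycomb genes differed little between the culture conditions. Of the 10 members, all tested, EED and PCGF6 were called and both were lower in 3-D grown cells, while none was called higher. That is 20% of the members beside 7.9% of all tested genes. In the fits, 4 members lay above 0 and 6 below, with a median log2 fold change of −0.013, beside −0.00014 over all tested genes. With library size only, 2 lay above 0 and 8 below, since SUZ12 and MTF2 changed sign, and the median of all tested genes was then −0.065. In normalized CPM the libraries of the conditions did not overlap in 7 of the 10 members, beside 50.5% of all tested genes. An unadjusted p below 0.05 (edgeR) was found in 5 members, beside 21.3% of all tested genes. The orders of libraries given for single members are those of normalized CPM and depend on the scaling. In TPM, which scale by length and library total without TMM, JARID2, MTF2 and RNF2 overlapped. EZH2 and SUZ12 were then lower in both 3-D libraries, and EED, PCGF6, RBBP4 and RBBP7 stayed lower.

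**Figure D1:**
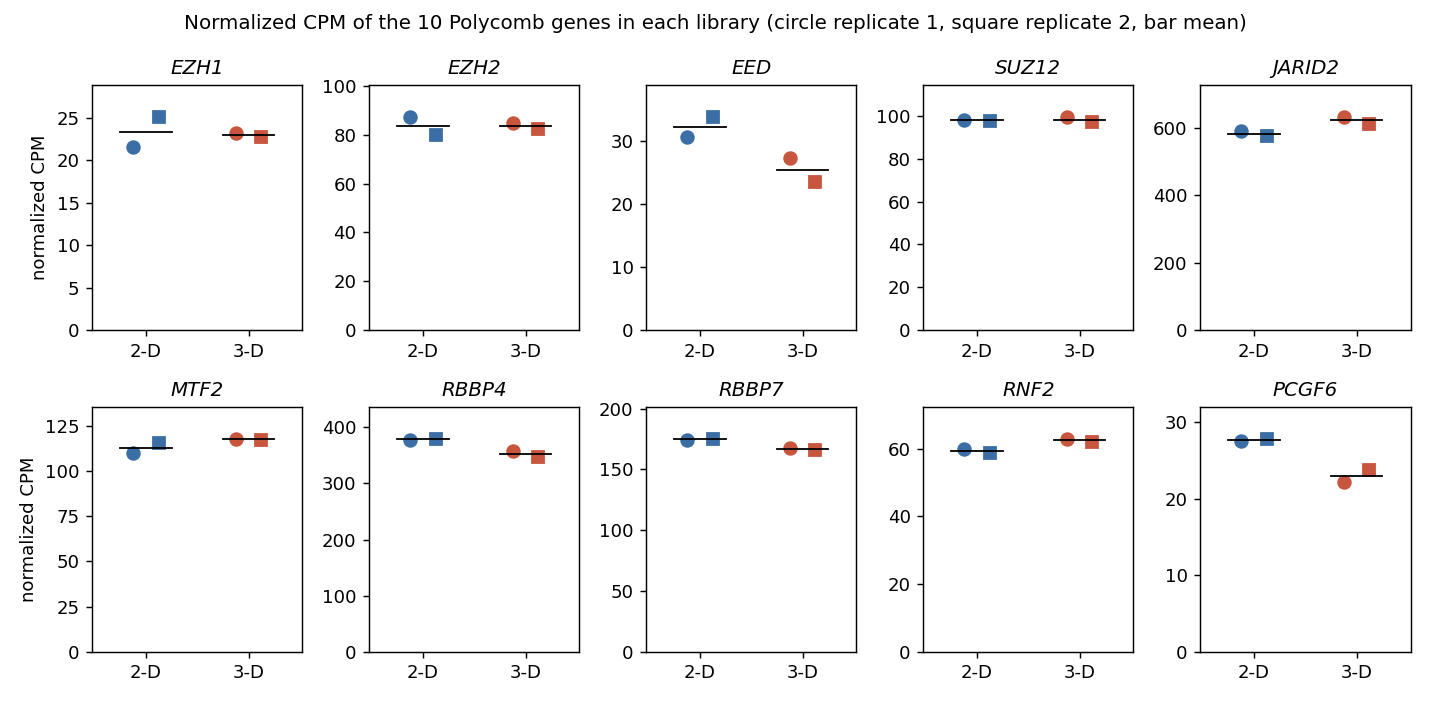
Normalized CPM (vertical axis, starting at 0) of each of the 10 Polycomb genes in the 2-D and 3-D libraries, with circles for replicate 1, squares for replicate 2 and a bar for the mean of a condition. EED and PCGF6 show both 3-D points clearly under both 2-D points, and the points of EZH1, EZH2 and SUZ12 overlap between conditions.

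EZH2, the main H3K27 methyltransferase of dividing cells, lies on chromosome 7 from 148807257 to 148884321 (GENCODE release 44, hg38, minus strand). It had 87.4 and 80.03 normalized CPM in the 2-D replicates, against 84.9 and 82.5 in the 3-D replicates. Both 3-D values fell between the 2-D values. Its log2 fold change was −0.0012 (standard error 0.043, edgeR quasi-likelihood test, adjusted p = 0.993), and the 95% interval of the change ran from −6.40% to 6.66%. The sign turned to 0.064 without 2-D replicate 1 and to 0.020 without 3-D replicate 2.

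EZH1, the paralog with weaker methyltransferase activity that prevails in resting cells, lies on chromosome 17 from 42700275 to 42745049 on the minus strand. Its normalized CPM were 21.6 and 25.1 in 2-D and 23.2 and 22.7 in 3-D grown cells. The conditions overlapped, with a log2 fold change at −0.024 (standard error 0.082, edgeR, adjusted p = 0.910) and an interval of the change from −13.0% to 11.2%. Leaving out 2-D replicate 2 turned its log2 fold change to 0.088. EZH1 had fewer counts than most members, between 407 and 774 in a library, and its interval was wider than that of EZH2.

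The ratio of EZH2 to EZH1 can be read within a library once counts are divided by length. In TPM (counts divided by the length of the union of a gene's exons and scaled to a common total) EZH2 was 2.63 and 2.07 times EZH1 in the 2-D replicates, against 2.38 and 2.36 times in the 3-D replicates. Both 3-D ratios lay between the 2-D ratios (exact permutation test, two-sided, p = 1, where the smallest p that 2 against 2 libraries allow is 0.33). The mean ratio of 2.35 rises to 3.73 when the longest transcript is used as the length, so its size depends on that choice.

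EED, on chromosome 11 from 86201212 to 86278813 on the plus strand, was the member with the greatest difference. It had 1055 and 1042 counts in the 2-D replicates, against 560 and 422 in the 3-D replicates, which are 30.6 and 33.8 normalized CPM in 2-D and 27.2 and 23.5 in 3-D grown cells. Both 3-D values were under both 2-D values, although the replicates of each condition differed by about as much as the gap between the nearest libraries. The log2 fold change was −0.34 (standard error 0.080, edgeR quasi-likelihood test, adjusted p = 0.0210), a change of −21.0% with a 95% interval from −29.98% to −10.9%.

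The EED call was present in 13 of 15 alternative fits. It was lost without 2-D replicate 2 (log2 fold change −0.27, edgeR, adjusted p = 0.111) and with offsets for length and GC content alone (−0.28, adjusted p = 0.0754), and was kept where those offsets were joined by the replicate block (−0.28, adjusted p = 0.0148). Leaving out 3-D replicate 1 gave −0.45, and leaving out 3-D replicate 2 gave −0.24, the ends of the range over these fits. The longest transcript of EED has a GC content of 33.0%, the lowest among the members. Over the tested genes with a GC content up to 41.7%, the median log2 fold change was −0.036 and 4.82% were called lower. Over those from 55.00% upward these values were 0.049 and 1.85%. The members up to 41.7% are EED, EZH2 and RBBP4, which lay below 0, and RNF2, MTF2 and SUZ12, which lay above 0. The part of GC content in the EED value was not tested.

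SUZ12, the scaffold subunit of PRC2, lies on chromosome 17 from 31937007 to 32001038 on the plus strand. Its normalized CPM of 98.4 and 97.6 in 2-D and 99.6 and 97.1 in 3-D grown cells overlapped. The log2 fold change was 0.0053 (standard error 0.032, edgeR, adjusted p = 0.952), with an interval from −4.38% to 5.36%, the narrowest bound on a difference among EED, SUZ12 and the EZH genes. Its sign was negative with library size only (−0.059).

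SUZ12 shares sequence with its pseudogene SUZ12P1 on the same chromosome, as 28.1% of the SUZ12 transcript aligned elsewhere on chromosome 17 at 97.6% identity. SUZ12P1 had 32.5 and 33.5 normalized CPM in 2-D and 29.0 and 27.9 in 3-D grown cells. Its log2 fold change of −0.21 (standard error 0.062, edgeR, adjusted p = 0.0573) did not pass the threshold. How reads shared by SUZ12 and SUZ12P1 were counted is not given in the sources used here, so both values are uncertain to that extent.

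RBBP4 and RBBP7 are histone-binding WD40 proteins that also serve in the NuRD, SIN3 and other chromatin complexes. RBBP4, on chromosome 1 from 32651142 to 32686211 on the plus strand, had 377.9 and 379.9 normalized CPM in 2-D and 358.0 and 347.3 in 3-D grown cells. The 3-D libraries were below the 2-D libraries by more than the spread of either pair. Its log2 fold change of −0.10 (standard error 0.030, edgeR, adjusted p = 0.0594) did not pass the threshold over all genes, and the interval of the change ran from −11.1% to −2.55%. In 9 of 15 alternative fits it was called lower, among them the fit with library size only (−0.17, adjusted p = 0.00406).

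The end of RBBP4 overlaps SYNC, the gene of the intermediate filament protein syncoilin, which is read from the opposite strand. The overlap covers 22.8% of the exon bases of RBBP4, and whether reads were counted by strand is not given in the sources used here. SYNC had 122.2 and 121.4 normalized CPM in 2-D and 110.6 and 107.3 in 3-D grown cells, and was called lower (log2 fold change −0.16, standard error 0.031, edgeR, adjusted p = 0.00690). The part of the shared bases in the RBBP4 value was not tested.

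RBBP7, on chromosome X from 16839283 to 16870362 on the minus strand, had 174.3 and 175.3 normalized CPM in 2-D and 167.9 and 165.8 in 3-D grown cells. As with RBBP4 the conditions did not overlap, but the log2 fold change was −0.067 (standard error 0.029, edgeR, adjusted p = 0.208), with an interval from −8.67% to −0.232%. It was called in 1 of 15 alternative fits, with library size only (−0.13, adjusted p = 0.0145). Only 2.44% of its exon bases overlap TXLNG, the gene of gamma-taxilin on the opposite strand, which was called higher (log2 fold change 0.13, edgeR, adjusted p = 0.0203).

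RBBP4 was 1.68 and 1.68 times RBBP7 in TPM in the 2-D replicates, against 1.653 and 1.62 times in the 3-D replicates. The 3-D ratios were lower than the 2-D ratios, with p = 0.33 in the exact permutation test (two-sided), the smallest this design allows. The mean ratio of 1.66 became 1.09 with the longest transcript as the length.

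**Figure D2:**
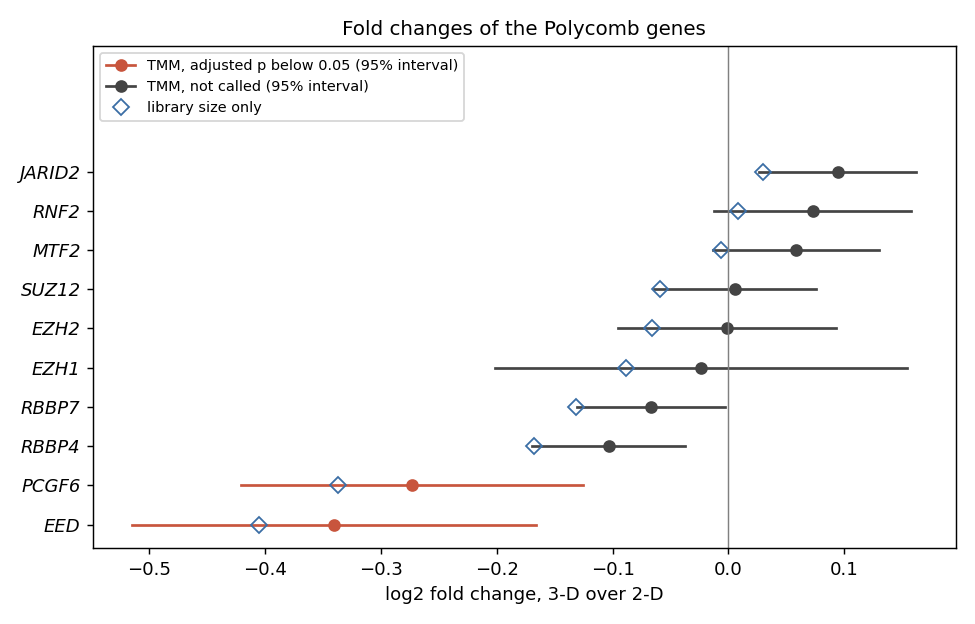
Log2 fold change in 3-D against 2-D culture (horizontal axis) of the 10 Polycomb genes from edgeR with TMM normalization, with 95% intervals, called genes in red, and the value with library size only as an open diamond. EED (−0.34) and PCGF6 (−0.27) lie furthest from 0, and with library size only all members shift to lower values, where SUZ12 and MTF2 change sign.

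JARID2, an accessory subunit that activates PRC2 and recruits it to chromatin, lies on chromosome 6 from 15246069 to 15522042 on the plus strand. With 588.9 and 576.5 normalized CPM in 2-D and 632.1 and 612.0 in 3-D grown cells it had the highest values of all members. Both 3-D libraries were above both 2-D libraries. The log2 fold change was 0.094 (standard error 0.031, edgeR, adjusted p = 0.0909), with an interval from 1.86% to 11.9%, and did not pass the threshold. It was called higher in 2 of 15 alternative fits, without the filter on low counts (adjusted p = 0.0143) and without 3-D replicate 2 (0.12, edgeR, adjusted p = 0.000788), and was 0.030 with library size only.

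MTF2, a Polycomb-like protein that binds unmethylated CpG-rich DNA, lies on chromosome 1 from 93079235 to 93139079 on the plus strand. It had 110.3 and 115.8 normalized CPM in 2-D and 118.1 and 117.3 in 3-D grown cells. The 3-D values lay above the 2-D values, by less than the 2-D libraries differed from each other. Its log2 fold change of 0.058 (standard error 0.033, edgeR, adjusted p = 0.350) was not called, and became −0.0063 with library size only. JARID2 was 5.05 and 4.71 times MTF2 in TPM in 2-D and 5.06 and 4.94 times in 3-D grown cells (exact permutation test, two-sided, p = 0.667), with a mean of 4.94, or 3.54 with the longest transcript as the length.

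RNF2, the ubiquitin ligase of PRC1, lies on chromosome 1 from 185045526 to 185102603 on the plus strand. Its normalized CPM were 60.1 and 58.9 in 2-D and 63.0 and 62.0 in 3-D grown cells, with both 3-D libraries above both 2-D libraries. The log2 fold change was 0.072 (standard error 0.039, edgeR, adjusted p = 0.322), and the interval of the change ran from −0.867% to 11.54%. It was 0.0080 with library size only and 0.12 with offsets for length and GC content, and it was called higher in 1 of 15 alternative fits, with those offsets and the replicate block together (0.12, edgeR, adjusted p = 0.0499). RING1, its paralog, named here after its values were seen, was listed with 0 counts in all 4 libraries. The RING1 transcript has 5 identical or near-identical copies on alternate contigs of hg38, so its count of 0 cannot be read as absence and no ratio of the ligases is given.

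PCGF6, on chromosome 10 from 103302796 to 103351144 on the minus strand, had 947 and 858 counts in the 2-D replicates, against 455 and 425 in the 3-D replicates. These are 27.5 and 27.8 normalized CPM in 2-D and 22.1 and 23.7 in 3-D grown cells, so the conditions were further apart than the replicates. The log2 fold change was −0.27 (standard error 0.068, edgeR quasi-likelihood test, adjusted p = 0.0282), a change of −17.2% with a 95% interval from −25.3% to −8.31%.

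PCGF6 stayed below 0 in all 15 alternative fits, between −0.34 and −0.22, but was called in 9 of them. The call was lost with DESeq2 (adjusted p = 0.151), with length and GC offsets (adjusted p = 0.0563), after the 2-D counts were thinned to 3-D depth (adjusted p = 0.0719), and without 2-D replicate 1, 2-D replicate 2 or 3-D replicate 1 (edgeR, adjusted p = 0.0755, 0.127 and 0.0755). Its transcript aligned over 96.8% of its length at 97.8% identity to an alternate contig of chromosome 19, under the 98% identity set for a copy. Most of RNF2 and RBBP4 also aligned elsewhere, at lower identity (54.4% of RNF2 at 87.1% and 68.4% of RBBP4 at 93.0%). Smaller parts of EZH2 (32.0% at 94.1% identity, chromosome 21) and EED (22.6% at 91.1%, chromosome X) aligned elsewhere too.

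**Figure D3:**
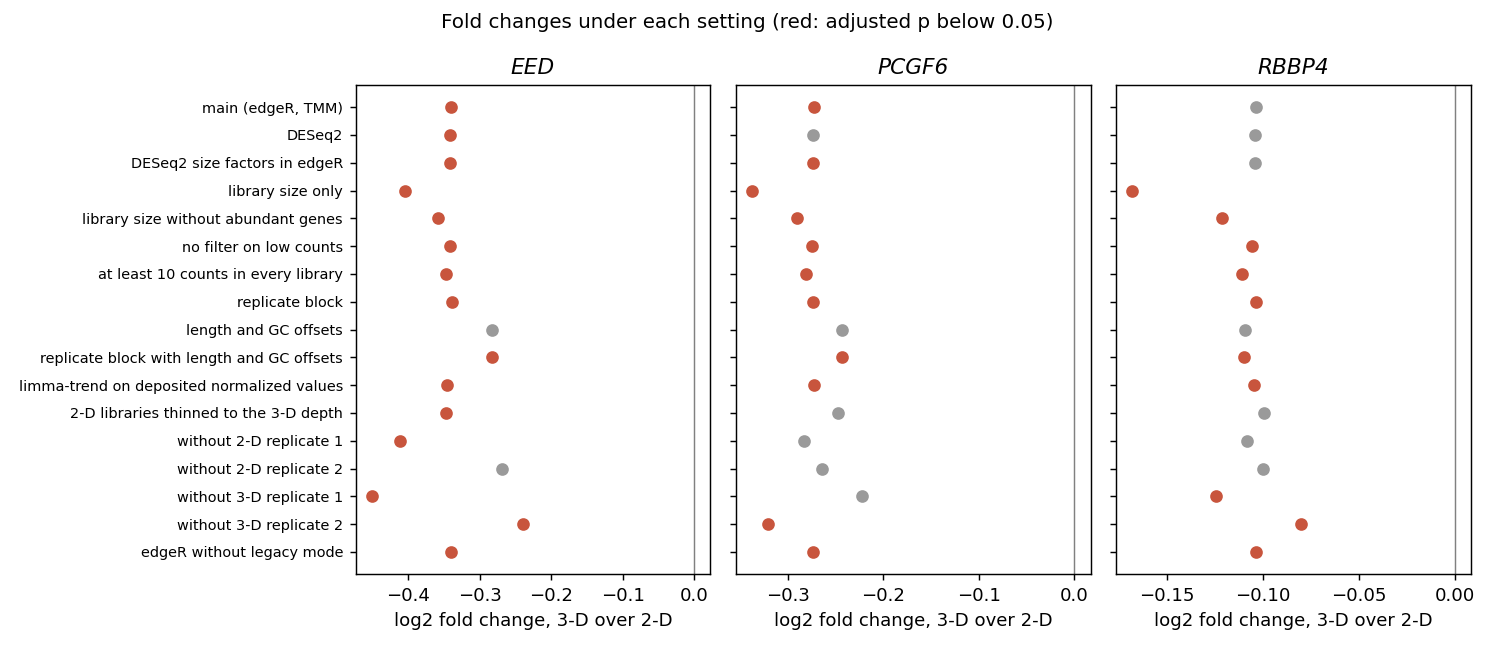
Log2 fold change in 3-D against 2-D culture (horizontal axis) of EED, PCGF6 and RBBP4 under each way of fitting (rows), red where the adjusted p is below 0.05 and grey where it is not. All 3 genes stay below 0 throughout, and the calls of PCGF6 and RBBP4 come and go while that of EED is lost in 2 of the planned fits.

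Compared per length, the members spanned a range from EZH1 to JARID2. JARID2 had a mean of 286.9 TPM (SD 2.98, n = 4 libraries), followed by RBBP4 (115.1), RBBP7 (69.4) and MTF2 (58.1), each with a range over libraries that did not touch the next. RNF2 (46.4) and SUZ12 (44.6) overlapped in their ranges, as did PCGF6 (25.1) and EZH2 (23.1), and EED (12.3) and EZH1 (9.87). Within each of the 4 libraries RNF2 was above SUZ12 and EED above EZH1. PCGF6 was above EZH2 in both 2-D replicates (27.7 and 28.8 against 24.6 and 23.1 TPM) and in 3-D replicate 2 (23.4 against 22.7), and below it in 3-D replicate 1 (20.6 against 22.1). EZH2, EED and SUZ12, which stand in one complex, were at 23.1, 12.3 and 44.6 TPM over the exon union and at 45.1, 25.3 and 53.0 TPM over the longest transcript, so the gaps between them depend on the length used. With the longest transcript as the length, EZH2 rose from rank 8 to 6, SUZ12 from 6 to 5, RNF2 fell from 5 to 7 and PCGF6 from 7 to 8, and the other ranks stayed.

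**Figure D4:**
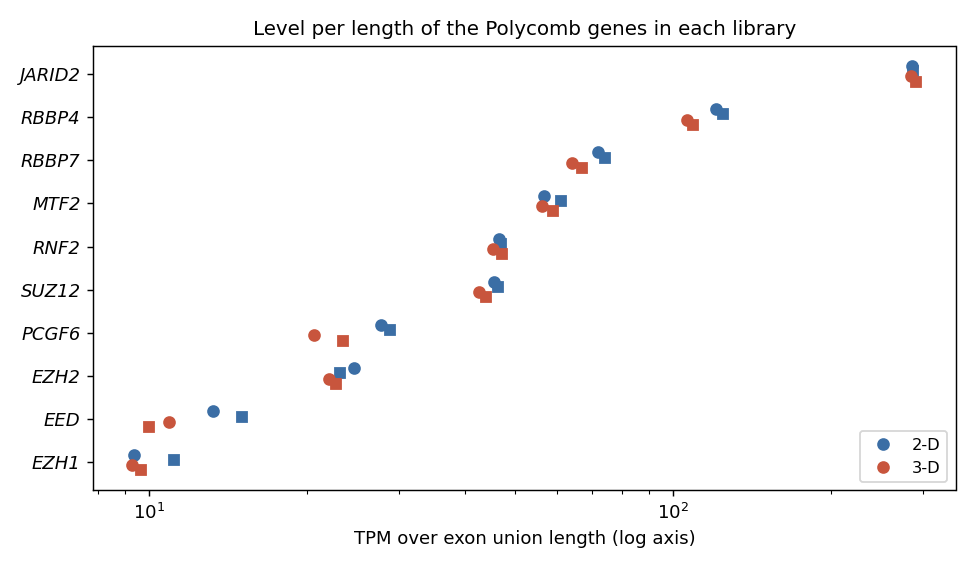
TPM over the exon union (horizontal log axis) of the 10 Polycomb genes in each library, blue for 2-D and red for 3-D, with circles for replicate 1 and squares for replicate 2. JARID2 is highest at 286.9 TPM on average and EZH1 lowest at 9.87 TPM, and the ranges of RNF2 and SUZ12, PCGF6 and EZH2, and EED and EZH1 overlap.

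The genes whose pattern over the 4 libraries was most like that of EZH2 were UGT3A1, IRF1 and SPON1, with root mean squared differences of 0.0035, 0.0042 and 0.0051 in centred log2 CPM among 22543 genes compared. This likeness rests on 4 libraries and on small differences between replicates. UGT3A1 had 13.0 and 11.9 normalized CPM in 2-D and 12.6 and 12.3 in 3-D grown cells, IRF1 5.46 and 5.00 against 5.30 and 5.19, and SPON1 26.0 and 23.9 against 25.3 and 24.8.

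The other PRC2 accessory subunits showed no called gene among 6 tested of 7 (median log2 fold change 0.058). LCOR, whose locus encodes a PRC2.1 partner, had 148.4 and 150.0 normalized CPM in 2-D and 153.3 and 157.6 in 3-D grown cells (log2 fold change 0.059, edgeR, adjusted p = 0.289). AEBP2, the partner of JARID2 in PRC2.2, had 104.1 and 106.2 against 104.4 and 101.3 (log2 fold change −0.031, edgeR, adjusted p = 0.660). None of the 6 had an unadjusted p below 0.05, and DESeq2 called 0 of 4.

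Canonical PRC1 also held no called gene among 13 tested of 14, with a median of 0.057, while 2 had an unadjusted p below 0.05 and DESeq2 called 0 of 9. PHC1, a polyhomeotic subunit with a near-identical copy on chromosome 12, had 270.3 and 268.3 normalized CPM in 2-D and 269.8 and 299.0 in 3-D grown cells (edgeR, adjusted p = 0.313), so the 3-D replicates differed by more than the conditions. SCML2, a Sex comb on midleg protein, had 65.4 and 68.2 against 63.5 and 61.0 (log2 fold change −0.10, edgeR, adjusted p = 0.173). PCGF2, the other gene with an unadjusted p below 0.05, named after its values were seen, had 24.5 and 23.9 against 26.96 and 31.9 (log2 fold change 0.28, standard error 0.080, edgeR, adjusted p = 0.0531). It is uncertain, as 48.5% of its exon bases are shared with CISD3 on the opposite strand and it has a near-identical copy on an alternate contig.

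Variant PRC1, the form that PCGF6 belongs to, held 5 called genes among 23 tested (21.7%, beside 7.9% of all tested genes), 3 upward and 2 downward, and its median was 0.050. E2F6, a repressive E2F factor, had 25.8 and 25.02 normalized CPM in 2-D and 19.9 and 20.7 in 3-D grown cells (log2 fold change −0.33, standard error 0.069, edgeR, adjusted p = 0.0122). CBX3, a heterochromatin protein 1 that reads methylated histone H3, had 243.5 and 241.3 against 221.5 and 201.1 (log2 fold change −0.20, standard error 0.040, edgeR, adjusted p = 0.0101). E2F6 is uncertain because 72.7% of its transcript also aligned to chromosome 22 at no less than 98% identity, and its call was lost with DESeq2 (adjusted p = 0.0762) and without 2-D replicate 1 (0.0595).

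E2F6 and CBX3 stand with PCGF6 in the same variant complex, PRC1.6. Its other subunits were looked at side by side after these values were seen, so no test is given for the complex. MGA, the large DNA-binding scaffold of PRC1.6, had a log2 fold change of 0.055 (edgeR, adjusted p = 0.364), L3MBTL2 0.050 (0.688), MAX 0.11 (0.233) and TFDP1 −0.065 (0.282). The histone deacetylases HDAC1 and HDAC2 had −0.11 (0.0585) and 0.057 (0.390), WDR5 0.040 (0.549), RYBP −0.016 (0.838) and YAF2 0.060 (0.859). None of these was called, and 21.4% of the exon bases of L3MBTL2 are shared with an antisense RNA.

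The 3 variant PRC1 genes that were called higher belong to other forms. AUTS2, a neuronal regulator found in PCGF3 and PCGF5 complexes, had 128.9 and 127.1 normalized CPM in 2-D and 150.8 and 149.4 in 3-D grown cells (log2 fold change 0.23, standard error 0.029, edgeR, adjusted p = 0.000541). BCOR, the corepressor of PCGF1 complexes, had 109.4 and 110.7 against 119.1 and 127.9 (0.17, standard error 0.036, adjusted p = 0.0137). USP7, a deubiquitinase bound to PCGF1 complexes and to many other proteins, had 454.3 and 446.1 against 493.1 and 483.9 (0.12, standard error 0.030, adjusted p = 0.0315). With library size only AUTS2 stayed called (0.17) while BCOR (0.10, adjusted p = 0.122) and USP7 (0.053, adjusted p = 0.315) did not. DESeq2 called AUTS2, USP7 and CBX3 among the 20 genes of the list with an adjusted p, and not BCOR (adjusted p = 0.0719).

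Genes that remove the Polycomb marks, and their partners, were measured as well. Of 14 tested H2AK119 deubiquitinases and partners, 2 were called, both higher (14.3%, beside 7.9% of all tested genes called and 4.54% called higher), and the list had a median of 0.0048. DESeq2 called 1 of 13, HCFC1, and not MBD6 (adjusted p = 0.0942). MBD6, a partner of the BAP1 deubiquitinase, had 20.5 and 22.4 normalized CPM in 2-D and 25.8 and 27.5 in 3-D grown cells (log2 fold change 0.31, standard error 0.074, edgeR, adjusted p = 0.0206). HCFC1, a host cell factor in the same complex and in many others, had 360.9 and 360.0 against 413.7 and 423.6 (0.22, standard error 0.030, adjusted p = 0.000916). Both are partners and not deubiquitinases. The deubiquitinases BAP1 (−0.052, edgeR, adjusted p = 0.505) and USP16 (0.0089, adjusted p = 0.959), named after their values were seen, were not called. The H3K27 demethylases KDM6A (log2 fold change −0.021, edgeR, adjusted p = 0.769) and KDM6B (0.14, adjusted p = 0.246) were not called by edgeR or DESeq2, and neither had an unadjusted p below 0.05 in edgeR.

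**Figure D5:**
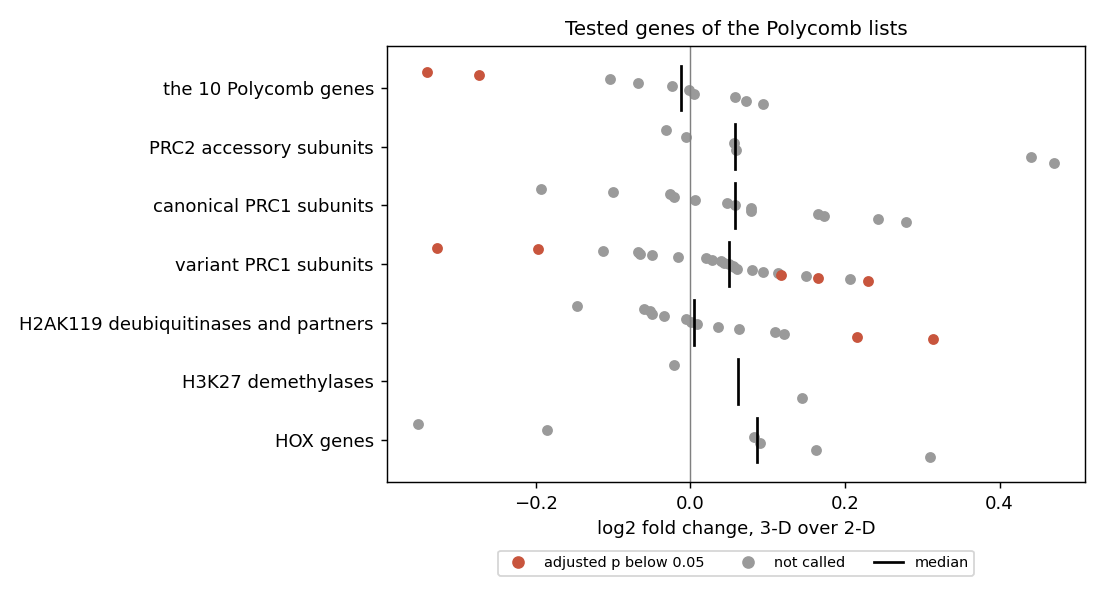
Log2 fold change in 3-D against 2-D culture (horizontal axis, TMM normalization) of the tested genes of each Polycomb list (rows), with called genes in red and the median of a list as a black bar. Called genes are seen among the 10 Polycomb genes (2 lower), the variant PRC1 subunits (3 higher, 2 lower) and the H2AK119 deubiquitinases and partners (2 higher, both partners). No other list shown holds one.

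Most HOX genes, the classical Polycomb targets, were scarcely transcribed in both conditions. Of 39 HOX genes, 33 had under 10 counts in every library, 6 of these had no count in any, and 6 were tested. None of the 6 was called or had an unadjusted p below 0.05 in edgeR, and for most HOX genes a difference was not detectable at this depth. HOXB2, which helps to pattern the hindbrain, had 3.40 and 2.95 normalized CPM in 2-D and 4.09 and 3.79 in 3-D grown cells (log2 fold change 0.31, edgeR, adjusted p = 0.297).

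Of 48 developmental regulators known to carry Polycomb marks in ESCs, 24 were tested and 1 was called (4.17%, beside 7.9% of all tested genes), and the median log2 fold change of those tested was 0.078. The called gene was CDKN1C, an imprinted inhibitor of cyclin-dependent kinases, which had 41 and 29 counts in the 2-D replicates, against 3 and 8 in the 3-D replicates. Its log2 fold change was −1.88 (standard error 0.454, edgeR, adjusted p = 0.0235), but these are few counts and its transcript has a near-identical copy on an alternate contig. The call was lost without 2-D replicate 1 (−1.69, adjusted p = 0.111) and without 3-D replicate 1 (−1.25, adjusted p = 0.117), the value was −2.84 without 3-D replicate 2, and DESeq2 gave CDKN1C no adjusted p. MIXL1 and TBXT, regulators of early mesoderm, were the most abundant of the list. MIXL1 had 33.6 and 31.9 normalized CPM in 2-D and 34.9 and 33.6 in 3-D grown cells, which overlapped, and TBXT had 21.1 and 22.4 against 24.1 and 25.4 (log2 fold change 0.19, edgeR, adjusted p = 0.147).

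Of 8 pseudogene copies of the members, 4 were tested and all 4 had lower values in 3-D grown cells (median −0.33), but none was called, while 2 had an unadjusted p below 0.05 in edgeR. Besides SUZ12P1 these were RBBP4P1 (9.84 and 9.83 normalized CPM against 9.10 and 7.03, log2 fold change −0.28, edgeR, adjusted p = 0.203), RBBP4P2 (−0.38, 0.594) and RBBP4P4 (−1.18, 0.238), the last with at most 16 counts in a library. EZH2P1 had at most 9 counts in a library and was not tested.

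Since several Polycomb genes follow cell division, the proliferation genes were set beside them. Of 21 tested, 3 were called higher and 2 lower (23.8%, beside 7.9% of all tested genes), with a median of 0.015. DESeq2 called 3 of 20, MKI67, PLK1 and CDK1. MKI67, the antigen of cycling cells, had 427.6 and 417.7 normalized CPM in 2-D and 521.0 and 498.3 in 3-D grown cells (log2 fold change 0.27, edgeR, adjusted p = 0.000384), and the mitotic kinase PLK1 (0.25) and the replication helicase subunit MCM5 (0.14) were also called higher. CDK1 (−0.21) and the thymidylate synthase gene TYMS (−0.11) were called lower. The summed level of the list was 4073 and 4067 normalized CPM in 2-D and 4190 and 4222 in 3-D grown cells, and its part in the values of EED and PCGF6 was not tested.

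The labelled cell type was compared with markers of pluripotent and other cells. The summed core pluripotency markers were at 3427 and 3395 normalized CPM in 2-D and 3450 and 3340 in 3-D grown cells, and 0 of 6 were called by edgeR or DESeq2, while 3 had an unadjusted p below 0.05 in edgeR. DPPA4 had a log2 fold change of −0.092 (edgeR, adjusted p = 0.0907), and LIN28A, the most abundant, 0.00076 (adjusted p = 0.994). POU5F1, also in the core list, has 6 near-identical copies on alternate contigs, so its counts are uncertain. Of 9 tested naive markers 1 was called (11.1%, beside 7.9% of all tested genes). It was KLF5 (0.26, edgeR, adjusted p = 0.00336), and the most abundant, ZFP42, was not called. KLF17, DPPA5 and ARGFX, naive markers that were named after their values were seen, had only 16 to 29, 0 to 4 and 8 to 13 counts in a library. Other naive markers, also named after their values were seen, had more. SUSD2 had 151 to 220 counts, KLF4 186 to 319, DNMT3L 261 to 569 and TFCP2L1 397 to 821. DPPA3 had 103 to 229, which are uncertain, as its transcript has 1 copy on the main chromosomes. The summed naive markers were at 273.2 and 275.3 normalized CPM in 2-D and 287.9 and 273.2 in 3-D grown cells. Of 8 primed markers 3 were called, all higher (SFRP2 0.28, THY1 0.22 and SALL2 0.21). That is 37.5%, beside 7.9% of all tested genes called and 4.54% called higher. The summed primed markers were at 1527 and 1556 normalized CPM in 2-D and 1572 and 1614 in 3-D grown cells. CD24, with 16045 to 30544 counts, had the most counts of the primed list and has a near-identical copy on chromosome Y, so this sum is uncertain. The naive and primed lists hold different genes, and whether the cells fit the naive label was not tested.

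Markers of other cell types ranged from near absent to abundant. Of 6 tested fibroblast markers 3 were called higher (COL3A1 0.73, POSTN 0.65 and COL1A1 0.29). That is 50%, beside 7.9% of all tested genes called and 4.54% called higher. The summed list was at 466.3 and 458.2 normalized CPM in 2-D and 468.0 and 512.1 in 3-D grown cells. COL1A2 made up the greatest share of this sum and was not called. The fibroblast genes DCN and LUM, named after their values were seen, had at most 6 and 17 counts in a library. PDGFRA had 21 to 42, POSTN 116 to 141 and PDGFRB 147 to 271. COL3A1 had 309 to 342, COL1A1 2721 to 4076 and COL1A2 5818 to 11187. No trophoblast (4 tested), neural ectoderm (4), mesoderm (6) or endoderm (4) marker was called by edgeR, and 1, 0, 3 and 1 of them had an unadjusted p below 0.05. The most abundant of these were XAGE2 and KRT7, NES and OTX2, KDR and MIXL1, and AFP and GATA4, in this order of the lists. Over the 4 libraries the lists summed to 4.04 to 5.94 normalized CPM for trophoblast, 603.2 to 629.3 for neural ectoderm, 214.2 to 228.8 for mesoderm and 9.51 to 11.55 for endoderm. NES, with 576.8 to 602.3 normalized CPM, made up most of the neural ectoderm sum. Whether other cells had a part in the Polycomb values was not tested.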

How the data were processed

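RNA-seq libraries of 2-D and 3-D grown Elf1 cells (ribosomal RNA depleted, paired ends) were processed by the authors with Trim Galore 0.6.3, HISAT2 2.1.0 on hg38, and featureCounts 1.6.4 on GENCODE release 30, with DESeq2 2.11.40.6 (versions from the submitters' processing notes). The authors deposited raw counts per gene and library, without normalization. A second deposited table holds the normalized signal, in which the authors divided the counts by DESeq2 size factors, and their own fold changes and p-values, which were not used. Strand and multi-mapping settings of the counting are not given in the sources used here.

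Of 60564 identifiers, 60295 matched GENCODE release 44, and the 269 others held 0.122% of the counts. Replicates, labelled biological, differed by more than sampling noise (chi-square over degrees of freedom 2.45 in 2-D and 4.39 in 3-D). Counts were tested with edgeR 4.0.16 (R 4.3.3, TMM, its filter on low counts, quasi-likelihood in legacy mode, condition alone) with Benjamini-Hochberg adjustment over 22555 genes. The authors used DESeq2, which is an alternative here (1.42.0), beside limma-trend (3.58.1) on log2 of the deposited normalized signal plus 1, other scalings and filters, a replicate block, length and GC offsets (splines, 5 degrees of freedom), thinning of the 2-D libraries, and each library left out. Standard errors are the fold change over the square root of F. On simulated counts for 22148 genes with 200 changed, the test called 26.5%, 74.2% and 100% of genes changed by 0.25, 0.5 and 1 on the log2 scale. These were 18 of 68, 49 of 66 and 66 of 66 genes, beside 14 false calls in the same simulation. Copies were found with minimap2 2.31-r1302, as alignments over at least 80% of a transcript at 98% identity or more.

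Named genes are the members, up to 4 called genes per direction in each other list (with fewer than 2 called, the 2 most abundant tested), the 3 genes most like EZH2, genes that overlap a member and its pseudogenes, with exceptions marked. Some items that this rule names are not reported here. The members and lists were chosen from general knowledge with earlier results of these data known. Python 3.11.15 with numpy 2.4.6, pandas 2.3.3 and matplotlib 3.10.9 made the tables and figures.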

Additional observations from a re-analysis of the deposited data

How the results depend on the processing

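The numbers of called genes moved by over 1.5 times in several fits. For all tested genes the count of 1782 became 795 with DESeq2 and 974 to 2643 with 1 library left out (974 without 2-D replicate 2, 1186 without 2-D replicate 1). For the members, 2 became 1 with DESeq2 or thinned libraries, 4 with library size only, no filter, block and offsets together, or edgeR without legacy mode (added after seeing the data), 0 with length and GC offsets (7 at an unadjusted p below 0.05 by edgeR), and 0 to 4 with 1 library left out. For the other Polycomb lists, 7 became 4 with DESeq2 or offsets and 4 to 12 with 1 library left out. For HOX and developmental genes, 1 became 0 with DESeq2 (2 at an unadjusted p below 0.05), 3 without a filter, 2 with at least 10 counts in every library, the block, or block and offsets, and 0 to 2 with 1 library left out. Both TPM and the ratios depend on the length used: 3.73, 1.09 and 3.54 with the longest transcript for EZH2 over EZH1, RBBP4 over RBBP7 and JARID2 over MTF2. With library size only, 514 of all tested genes were called higher and 1879 lower. For several of the other fits the count over all tested genes is not given here. In those fits a move of the members or lists cannot be told apart from a move of the whole test. The cause of these moves was not tested.

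Signs turned for values near 0. With library size only these were SUZ12 (−0.059), MTF2 (−0.0063), LCOR (−0.0052), MIXL1 (−0.0010), LIN28A (−0.064) and NES (−0.012). SUZ12 was also −0.012 without mitochondrial, histone and ribosomal protein genes and −0.0022 with at least 10 counts. LIN28A was −3.1e-06 with DESeq2 size factors, and −0.017, −0.0012, −0.0068 and −0.00049 in the fits without abundant genes, without a filter, with at least 10 counts and by limma-trend. NES (−0.021, with the block −0.021) and OTX2 (0.0056, with the block 0.0057) turned with offsets, and OTX2 when thinned (0.055). Over the fits with 1 library left out, log2 fold changes that crossed 0 ran from −0.063 to 0.064 for EZH2, −0.13 to 0.088 for EZH1, −0.013 to 0.025 for SUZ12, −0.036 to 0.039 for LIN28A, −0.099 to 0.074 for OTX2, −0.13 to 0.32 for AFP, −0.086 to 0.023 for ZFP42 and −0.015 to 0.37 for GATA4.

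The labels do not say what the replicate numbers share, and deviations of same-numbered libraries had a correlation of −0.0049 (−0.11 above 10 CPM), so the numbers were not taken as pairs. With the replicate block, 2167 genes, 3 members (RBBP4 in addition) and 10 genes of the Polycomb lists were called. EZH1, EED and PCGF6 had the fewest counts and the greatest standard errors among the members (0.082, 0.080 and 0.068). The parts of depth and of replicate spread in this were not tested.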
